A study of Mus musculus with 3 samples.

Results

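The genes described here encode the glucocorticoid receptor, its close relative the mineralocorticoid receptor, an enzyme that makes their ligand, and 5 genes known to be switched on by the receptor. They were chosen by name from earlier results on these same libraries, and Fkbp5 was picked because its level differed among them, so the Fkbp5 difference is described without a test. The 8 genes, of 50600 in the deposited tables, are Nr3c1, Nr3c2, Hsd11b1, Fkbp5, Tsc22d3, Ddit4, Sgk1 and Zbtb16, each matched by symbol to its Ensembl identifier.

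The libraries were made from T cells of C57BL/6NJ mice, taken as primary cells, and make up 1 group whose biological replicates carry the numbers 2, 3 and 4. Sex and age are not given, and a shared donor identifier leaves unstated whether separate animals were used. The labels name an assay of total RNA beside a protocol for poly(A) libraries, and link a protocol for differentiating CD4+ T cells, while the file headers carry the words Th0, activated and 0 h. No agent and no glucocorticoid is named for any library, and there is no second group, so only levels and differences among the replicates could be examined.

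Glucocorticoids such as mouse corticosterone enter cells freely and bind the receptor encoded by Nr3c1, which waits in the cytoplasm in a complex with heat shock protein chaperones and immunophilins. The bound receptor moves into the nucleus, where it binds palindromic response elements as a dimer and also restrains inflammatory transcription factors. In T cells and thymocytes the hormone is known for shutting down cytokine genes, for inducing death of immature cells, and for a daily rhythm in migration that involves the interleukin 7 receptor and Cxcr4.

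Replicates 2, 3 and 4 held 47432940, 59698913 and 28340521 counts. Levels are in TPM, which divides counts by exon length and puts every library on a common total. A gene is called detected where it reached 1 TPM or more in each of the 3 libraries, and over detected protein-coding genes the median was 33.4 TPM. The T cell label was checked against 7 defining genes, all detected, with summed levels between 8027 and 8201 TPM. The receptor chain gene Trac averaged 3374 TPM and the kinase gene Lck 1715 TPM, with Cd4 between 1018 and 1067 TPM and Cd3e between 503 and 529 TPM. Replicate 2 stood apart in sex-linked genes, with Xist at 151, 0.221 and 0.399 TPM and the Y-linked gene Ddx3y at 0.248, 80.0 and 72.3 TPM in replicates 2, 3 and 4. Of like kind were Eif2s3y, Kdm5d and Uty, Y-linked as well, with 0.0621 to 0.164 TPM in replicate 2 and 9.54 to 53.3 TPM in the other 2 libraries. Values of replicate 2 below therefore come from cells whose sex-linked transcripts differed from those of the other 2 libraries, and what part that has in any difference was not tested. Because the cells were sequenced in bulk, fewer cells of a type and less RNA per cell cannot be told apart. A gene is called varying where edgeR's goodness of fit found its libraries farther apart than is usual for genes of its abundance, at a Benjamini-Hochberg adjusted p of 0.05 over the 13498 genes whose counts averaged 10 or more. That call was made for 72 of them, or 0.533%. Intervals are 95% exact Poisson intervals for a level and exact binomial intervals for a ratio, and they cover counting error only.

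Nr3c1, the glucocorticoid receptor gene, was well expressed and nearly even across the libraries. Nr3c1 (ENSMUSG00000024431.14, mm10 chr18:39410545-39491301, minus strand) had 8003, 10213 and 4593 counts in replicates 2, 3 and 4, which came to 81.9, 82.6 and 77.6 TPM. Its mean of 80.7 ± 2.72 TPM (SD, n = 3) lay at percentile 76.8 among detected protein-coding genes. Its log2 range among the libraries was 0.06, against a median of 0.19 over all genes tested (goodness of fit, unadjusted p = 0.931).

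Nr3c2, the mineralocorticoid receptor gene, whose product also binds corticosterone, was close to the limit of detection. Nr3c2 (ENSMUSG00000031618.13, chr8:76899442-77245012, plus strand) had 12, 28 and 5 counts, or 0.141, 0.260 and 0.0969 TPM in replicates 2, 3 and 4. The intervals were 0.0727 to 0.246 TPM, 0.173 to 0.375 TPM and 0.0315 to 0.226 TPM, and all 3 overlapped (goodness of fit, unadjusted p = 0.246). The ratio of replicate 3 to replicate 4 was 2.62, with an interval of 1.0004 to 8.70 that just excluded 1. The intervals of replicate 2 over replicate 3 and over replicate 4 included 1. On the log2(TPM + 0.1) scale Nr3c1 exceeded Nr3c2 by 8.29 ± 0.40 (SD, n = 3). Pooled over libraries and corrected for length, the ratio of their counts was 442 (330 to 606). The sign was the same in 3 of 3 libraries, with an exact two-sided sign-flip permutation p of 0.25. With 3 libraries no smaller p can be reached, so none of the 6 contrasts between genes made here could pass 0.05, and each had the same p of 0.25 and an adjusted p of 0.25. Among genes of other steroid hormone receptors, the oestrogen receptor gene Esr1 was at 0.789, 0.937 and 0.771 TPM in replicates 2, 3 and 4, while Pgr and Esr2 had 0 counts.

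**Figure D1:**
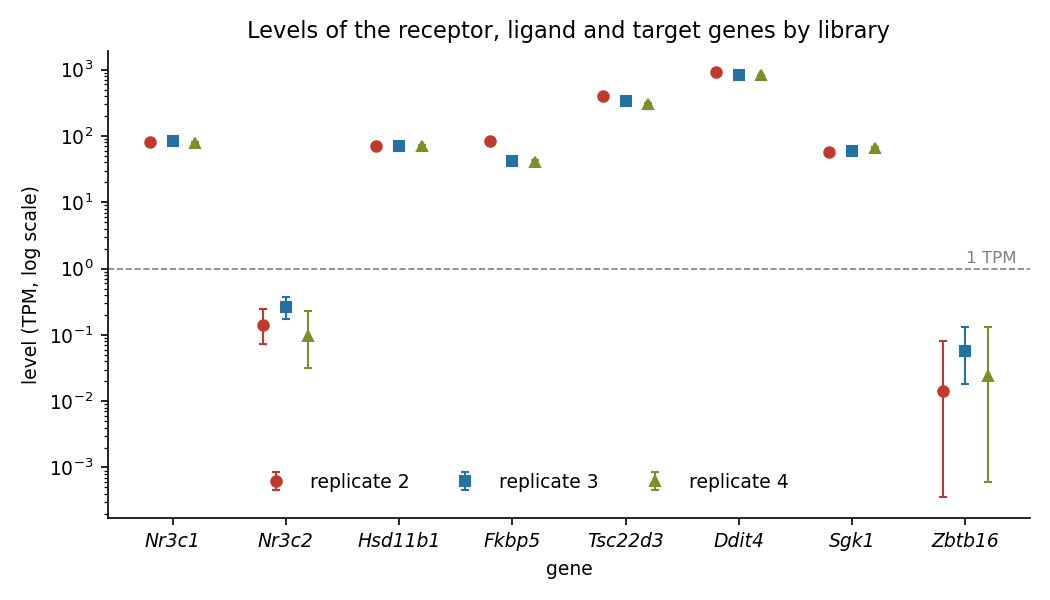
Level of each of the 8 genes in each library, in TPM on a log axis, with 95% exact Poisson intervals of the count as bars (smaller than the marker for the abundant genes). Nr3c2 and Zbtb16 lie below the dashed line at 1 TPM in all 3 libraries, and Fkbp5 is higher in replicate 2, at 85.0 TPM, than in replicates 3 and 4, at 42.5 and 41.1 TPM.

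Hsd11b1 encodes the enzyme that regenerates active glucocorticoid from its inert 11-keto form inside the cell. The gene had the lowest coefficient of variation of the 8. Hsd11b1 (ENSMUSG00000016194.14, chr1:193221634-193264075, minus strand) had 3879, 4929 and 2356 counts and stood at 69.3, 69.6 and 69.5 TPM in replicates 2, 3 and 4, a mean of 69.5 ± 0.178 TPM (SD, n = 3) with a coefficient of variation of 0.256% (goodness of fit, unadjusted p = 0.934). The intervals were 67.1 to 71.5, 67.7 to 71.6 and 66.7 to 72.4 TPM, wider than the differences among the libraries. The log2 range rounded to 0.06 for Hsd11b1 and Nr3c1 alike. The enzyme is best known from liver, fat and myeloid cells, so the markers of other cells are given beside it. The 8 myeloid genes summed to between 17.0 and 19.5 TPM, most of it from Cd68 at 13.3 ± 0.314 TPM, followed by Lyz2 at 1.75 ± 0.418 TPM and Itgam at 1.03 ± 0.118 TPM, with the macrophage genes Csf1r at 0.302 ± 0.195 TPM and Adgre1 at 0.249 ± 0.159 TPM. The 6 stromal and endothelial genes summed to between 0.332 and 0.573 TPM, with Cdh5 at 0.257 ± 0.0912 TPM, Col1a1 at 0.158 ± 0.0226 TPM and Pdgfrb at 0.0110 ± 0.0190 TPM, and Col1a2, Dcn and Pdgfra had 0 counts. The part of such cells in the Hsd11b1 level was not tested.

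The opposing enzyme, encoded by Hsd11b2, inactivates the hormone and had 0 counts, where 3 counts over the 3 libraries would be 0.0431 TPM. Taken at that floor of 3 pooled counts, Hsd11b1 was at least 1610.7-fold higher, and the lower end of the 95% exact binomial interval of the ratio was lower still, at 1309.7. The difference on the log2(TPM + 0.1) scale was 9.44 ± 0.004. With 0 counts for Hsd11b2 it depends on the pseudocount, at 6.14 with a pseudocount of 1 and 12.76 with 0.01. Its SD holds the spread of Hsd11b1 alone. H6pd supplies the NADPH that lets the first enzyme run as a reductase, and it was detected at 59.3, 52.9 and 53.8 TPM in replicates 2, 3 and 4. Of the 13 genes of steroid synthesis, inactivation and efflux, 6 were detected. The electron carriers of mitochondrial steroid synthesis, Fdxr at 57.3 ± 4.41 TPM and Fdx1 at 10.7 ± 0.583 TPM, were among them. The cholesterol carrier gene Star was at 3.33 ± 0.277 TPM, but the enzyme genes that follow it were at or near 0, with 9 pooled counts for Cyp11a1, 1 for Cyp17a1 and 0 for Cyp11b1, Cyp21a1 and Hsd3b1. The 2 copies of the drug and steroid efflux pump, Abcb1a at 3.63 ± 0.256 TPM and Abcb1b at 5.87 ± 0.709 TPM, were low, and as close copies they may share reads. By edgeR's goodness of fit 0 of the 7 genes of this list that could be tested were called varying, and 0 had an unadjusted p under 0.05.

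Fkbp5 encodes an immunophilin that joins the receptor complex and lowers its affinity for hormone, so that its induction closes a negative feedback loop. Fkbp5 (ENSMUSG00000024222.16, chr17:28399095-28517524, minus strand) had 7121, 4503 and 2086 counts and stood at 85.0, 42.5 and 41.1 TPM in replicates 2, 3 and 4. The intervals were 83.0 to 87.0 TPM, 41.3 to 43.8 TPM and 39.4 to 42.9 TPM, so replicate 2 was clear of the other 2 libraries, whose intervals overlapped. The ratio of replicate 2 to replicate 3 was 1.97 (1.90 to 2.05), that of replicate 2 to replicate 4 was 1.99 (1.90 to 2.09), and that of replicate 3 to replicate 4 was 1.01 (0.960 to 1.07). Over the 3 libraries the mean was 56.2 ± 24.9 TPM, a coefficient of variation of 44.4%. By the gap between replicate 2 and the next library, Fkbp5 ranked 56 of 13498 genes. These are the values for which the gene was picked.

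Tsc22d3 encodes GILZ, a leucine zipper protein that mediates many anti-inflammatory effects of the hormone in T cells. Tsc22d3 (ENSMUSG00000031431.13, chrX:140539528-140600659, minus strand) had 22970, 24546 and 10542 counts, or 402, 340 and 305 TPM in replicates 2, 3 and 4. Its mean of 349 ± 49.3 TPM (SD, n = 3) lay at percentile 96.2 of detected protein-coding genes. Replicate 2 exceeded replicate 3 by a ratio of 1.17 (1.15 to 1.19) and replicate 4 by 1.27 (1.24 to 1.30), beyond counting error in both cases. Against the spread of genes of its abundance, the difference did not pass (edgeR goodness of fit, unadjusted p = 0.0896, adjusted p = 1.00). The gene is X-linked. Of the 428 X-linked genes tested, 168 were highest in replicate 2, beside 33.9% of all genes, and 145 were lowest there, beside 33.6%. By the goodness of fit 5 were called varying, Xist among them, beside 0.533% of all genes. An unadjusted p under 0.05 was found for 19, against 554 of the 13498 genes tested. The part of X linkage in the Tsc22d3 values was not tested.

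Ddit4 encodes REDD1, which restrains the growth kinase complex mTORC1 after stress or hormone, and it was the most abundant of the 8 genes. Ddit4 (ENSMUSG00000020108.4, chr10:59949669-59951834, minus strand) had 20991, 24579 and 11441 counts, or 908, 841 and 818 TPM in replicates 2, 3 and 4. The mean was 856 ± 47.0 TPM (SD, n = 3), at percentile 98.8. Replicate 2 was above replicate 3 by a ratio of 1.06 (1.04 to 1.08) and above replicate 4 by 1.07 (1.05 to 1.10), a small difference that the goodness of fit did not call (unadjusted p = 0.791).

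Sgk1 encodes a kinase that controls ion channels and T cell differentiation, and it ran the other way. Sgk1 (ENSMUSG00000019970.15, chr10:21882184-21999903, plus strand) had 3727, 4845 and 2563 counts, or 57.7, 59.4 and 65.6 TPM, and was lowest in replicate 2. The mean was 60.9 ± 4.13 TPM (SD, n = 3). The ratio of replicate 2 to replicate 3 was 0.959 (0.918 to 1.00) and that of replicate 2 to replicate 4 was 0.849 (0.807 to 0.893), and the goodness of fit gave an unadjusted p of 0.275.

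Zbtb16 encodes PLZF, a transcription factor that glucocorticoids induce in many tissues and that directs the development of innate-like T cells. Zbtb16 (ENSMUSG00000066687.5, chr9:48654297-48836222, minus strand) had 1, 5 and 1 counts in replicates 2, 3 and 4. The levels were 0.0144, 0.0569 and 0.0237 TPM, with upper limits of 0.0801, 0.133 and 0.132 TPM, so the 3 libraries could not be told apart at this depth and the gene was too low to test. Of 10 markers of innate-like T cells and NK cells 3 were detected, Il18r1 at 44.8 ± 0.856 TPM, Klrd1 at 29.4 ± 0.900 TPM and Trdc, the constant gene of the γδ receptor, at 10.5, 7.68 and 7.24 TPM. The list summed to between 84.9 and 90.3 TPM, and Klrb1c and Ncr1, which define NK cells, were below 1 TPM in every library.

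Sequence around the starts of the target genes is given because, among the targets with a window, 1 of 4, Sgk1, carried a complete palindrome there. The windows come from RefSeq on GRCm38.p6, reach 250 bases upstream of an annotated start and 50 bases past it, and cover Nr3c2, Hsd11b1, Fkbp5, Tsc22d3, Ddit4 and Sgk1, 6 of the 8 genes, with 13 windows in all. The letters searched on both strands were the full palindrome (AGAACA, then any 3 bases, then TGTTC), a relaxed form that overlaps it (GNACA, then any 3 bases, then TGTNC), and the hexamer AGAACA of a single arm, which the palindrome also contains. Of 32851 windows in the table, 16 held the full palindrome (0.0487%), 156 the relaxed form (0.475%) and 6233 the hexamer (19.0%). In Sgk1 the window of 1 of 6 annotated starts (chr10:21993640-21993939, plus strand) held it, as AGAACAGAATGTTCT at chr10:21993701-21993715, beginning 189 bases upstream of the start. A further hexamer lay 242 bases upstream, and the windows of 2 other Sgk1 starts held a hexamer 195 and 13 bases upstream. For Tsc22d3 the window at the far 5′ end of the gene (chrX:140600473-140600772, minus strand) held a hexamer 185 bases upstream. The Fkbp5 window (chr17:28486100-28486399, minus strand), 70.7% G and C against a median of 52.7% over all windows, held none of the 3, and those of Ddit4, Hsd11b1 and Nr3c2 held none either. In all, 4 of the 13 windows held the hexamer, beside 19.0% of all windows. The known response elements of human FKBP5 lie in introns, outside such a window. In the lines that follow, each written on the strand of its gene, capitals mark the matches.
Sgk1: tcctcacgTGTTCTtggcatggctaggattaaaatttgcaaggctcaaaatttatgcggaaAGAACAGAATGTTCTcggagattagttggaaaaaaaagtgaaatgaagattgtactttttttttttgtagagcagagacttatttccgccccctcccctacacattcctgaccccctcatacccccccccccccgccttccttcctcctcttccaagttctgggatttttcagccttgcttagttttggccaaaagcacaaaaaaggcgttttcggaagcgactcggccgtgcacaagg
Tsc22d3: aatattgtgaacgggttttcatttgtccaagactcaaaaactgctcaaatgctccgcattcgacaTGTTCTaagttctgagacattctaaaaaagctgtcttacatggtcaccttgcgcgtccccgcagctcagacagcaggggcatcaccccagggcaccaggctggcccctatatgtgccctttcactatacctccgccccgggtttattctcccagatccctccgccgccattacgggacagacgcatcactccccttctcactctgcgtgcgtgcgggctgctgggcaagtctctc
Fkbp5: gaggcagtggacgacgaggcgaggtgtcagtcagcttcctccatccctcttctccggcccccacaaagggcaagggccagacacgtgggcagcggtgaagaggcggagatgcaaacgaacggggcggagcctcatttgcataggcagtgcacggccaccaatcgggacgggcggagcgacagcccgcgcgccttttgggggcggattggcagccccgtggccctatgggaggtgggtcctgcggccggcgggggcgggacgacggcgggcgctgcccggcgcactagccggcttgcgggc
The search was unequal, since Sgk1 had windows at more annotated starts than the other targets. Whether a match goes with a difference among libraries was not tested. A match is only a description of letters, since no binding was measured here.

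The question that the Fkbp5 values raise is whether the other targets shared its difference. Among the 3 other targets that could be tested, 2 had their libraries in the same order as Fkbp5, Tsc22d3 and Ddit4, where 19.3% of all 13498 genes tested had that order. The same 2 of 3 were highest in replicate 2, against 33.9% of all genes, and 1 of 3, Sgk1, was lowest there, against 33.6% of all genes. None of the 3 had replicate 2 at least 1.5-fold above both other libraries, as Fkbp5 did and as did 2.00% of all genes. From 3 targets no reading of the order can be drawn, and the sizes differed. The deviations of replicate 2 from a gene's own mean of log2 CPM were 0.66 for Fkbp5, 0.19 for Tsc22d3, 0.06 for Ddit4 and -0.10 for Sgk1.

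By the goodness of fit, 0 of the 6 members tested besides Fkbp5 were called varying, beside 0.533% of all genes, and 0 of these 6 had an unadjusted p under 0.05. The smallest unadjusted p of the 6 was the 0.0896 of Tsc22d3, and all 6 adjusted p-values rounded to 1.00. The count was 0 as well under each other scaling, count minimum and dispersion that was tried and with each library left out. The labels call the libraries biological replicates, and by its sex-linked genes replicate 2 came from another animal than the other 2, but nothing places replicates 3 and 4 in separate animals. These p-values weigh only how far these libraries lay apart, which may in part be technical.

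**Figure D2:**
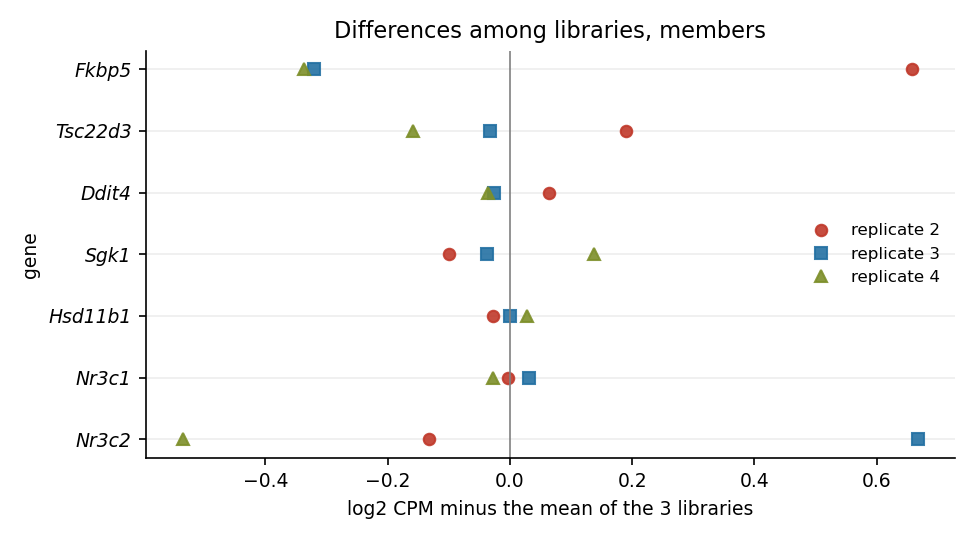
Deviation of each library from the mean of the 3, in log2 CPM, for the 7 genes abundant enough to test. Fkbp5 is the only abundant gene with replicate 2 far to the right, at 0.66, while Tsc22d3 is at 0.19, Ddit4 at 0.06 and Sgk1 at -0.10, and the wide spread of Nr3c2 comes from 45 counts in all.

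**Figure D3:**
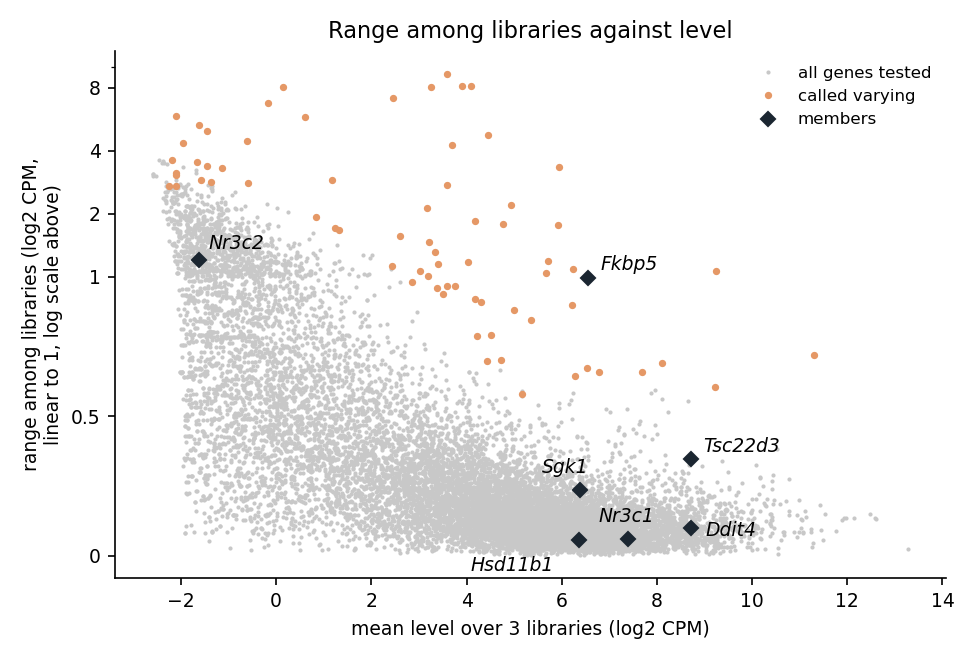
Range of log2 CPM among the 3 libraries against the mean log2 CPM, for the 13498 genes tested (grey), those called varying (orange) and the members (diamonds); the vertical axis is linear up to 1 and logarithmic above. Fkbp5 stands at a range of 0.99, while Nr3c1, Hsd11b1 and Ddit4 have ranges of 0.06, 0.06 and 0.10 and lie within the grey cloud.

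A wider list of 28 genes known to be induced by glucocorticoids in lymphoid or other cells was examined in the same way. Of the 28, 22 were detected and 24 were abundant enough to test. The most abundant were Txnip, an inhibitor of thioredoxin and of glucose uptake, at 1238, 1290 and 1197 TPM, Il7r at 875, 607 and 556 TPM, and the antiproliferative gene Btg1 at 470, 441 and 421 TPM in replicates 2, 3 and 4. Of the 24 tested, 12 were highest in replicate 2, beside 33.9% of all genes, 5 were lowest there, beside 33.6%, and 7 had the order of Fkbp5, beside 19.3%. None of the 24 had replicate 2 at least 1.5-fold above both others, beside 2.00% of all genes. The median deviation of replicate 2 over the 24 was 0.06, against 0.00 over all genes tested.

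Il7r, the receptor that gives naive T cells their survival signal, was called varying (edgeR goodness of fit, adjusted p = 0.0449) and was highest in replicate 2. The ratio of replicate 2 to replicate 3 was 1.42 (1.3995 to 1.4420) and that of replicate 2 to replicate 4 was 1.52 (1.49 to 1.55). This call was close to the threshold, and it was lost without a count minimum, with a minimum of 50, under a common dispersion, and whichever library was left out, with adjusted p between 0.0546 and 1.00 (1.00 without replicate 2, 0.178 without replicate 3 and 0.393 without replicate 4). It held under size factor scaling, at 0.0465, and under an older estimate of the dispersion trend, at 0.00372. Pik3ip1, an inhibitor of PI3 kinase signalling that quiescent T cells express, had the same shape, at 207, 148 and 145 TPM in replicates 2, 3 and 4, with ratios of 1.39 and 1.38 for replicate 2 over replicates 3 and 4, but was not called (adjusted p = 0.292). Klf9 and Per1, genes that the receptor induces in most cell types studied, were at 1.86, 1.09 and 1.27 TPM and at 56.0, 49.3 and 50.3 TPM, and neither was called. The genes of this list too low to test were nearly silent, with 6 pooled counts for Mt1, 1 for Mt2, 1 for Il1r2 and 0 for Cebpd.

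Dusp1, a phosphatase gene through which the hormone dampens MAP kinase signalling, was the other member of that list called varying (adjusted p = 0.0230), but its order was different. It stood at 29.4, 31.0 and 46.1 TPM in replicates 2, 3 and 4 and so was highest in replicate 4. Dusp1 is also an immediate early gene. Of the 9 others listed from that class 8 could be tested. Of these, 3 were called varying, beside 0.533% of all genes, and were highest in the same library. Fos had 30.8, 27.2 and 122 TPM in replicates 2, 3 and 4, Jun had 51.7, 42.8 and 143, and Junb had 277, 283 and 423. Ier2 at 289 ± 12.3 TPM and Nr4a1 at 101 ± 3.56 TPM, the next most abundant after Junb, were not called. What part these have in the Dusp1 value was not tested. Leaving out replicate 4 ended the calls of Fos, Jun and Junb (adjusted p = 1.00 each). That of Dusp1 was lost with any library left out, at an adjusted p of 0.0649 without replicate 2, 0.207 without replicate 3 and 1.00 without replicate 4.

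**Figure D4:**
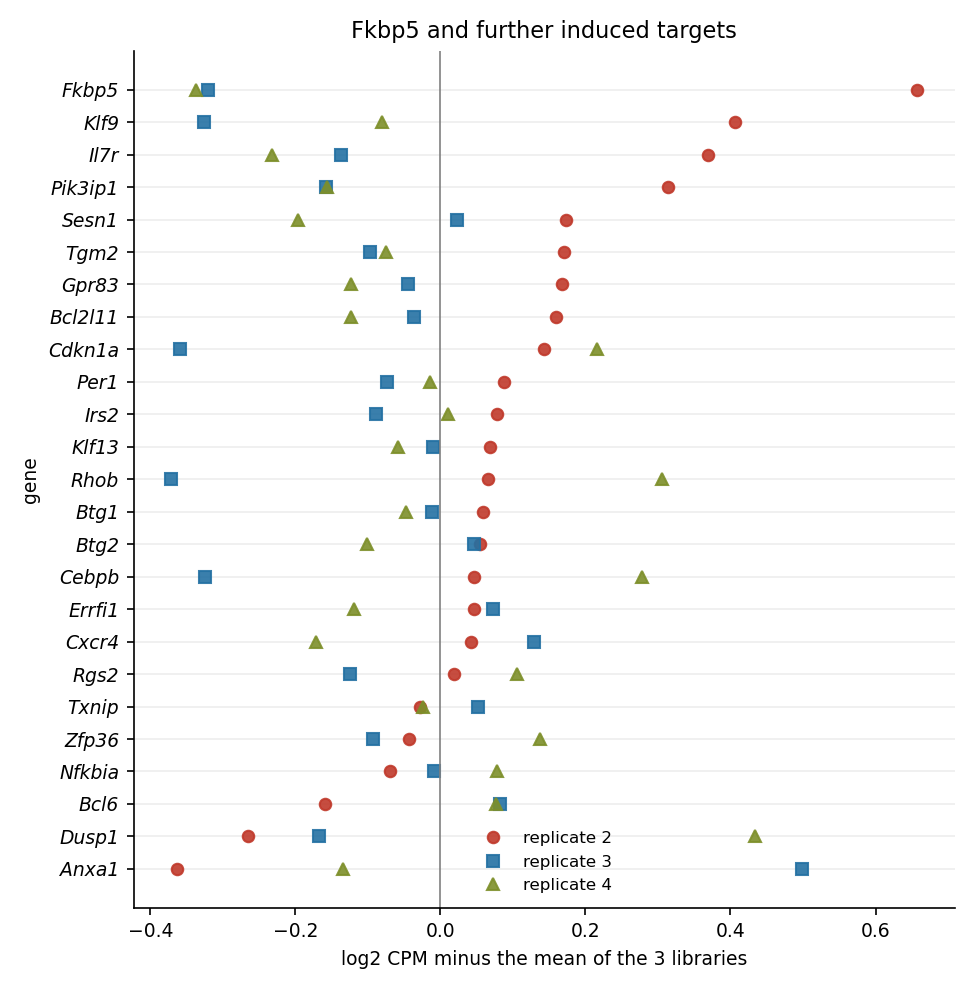
Deviation of each library from the mean of the 3, in log2 CPM, for Fkbp5 and the 24 further induced targets abundant enough to test, ordered by replicate 2. Replicate 2 is highest for 12 of the 24, with Il7r and Pik3ip1 nearest to Fkbp5 among the abundant ones, and Dusp1 is highest in replicate 4.

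Genes that glucocorticoids repress in immune cells were mostly silent whatever the library. Of 12 listed, 3 were detected. Tnf was at 52.8, 42.3 and 44.9 TPM, the adhesion gene Icam1 at 30.8, 32.6 and 37.4 TPM, and Il2 at 2.19, 2.05 and 2.85 TPM in replicates 2, 3 and 4, and by edgeR's goodness of fit 0 of the 3 were called varying, with 0 at an unadjusted p under 0.05. Il5, Il6, Ptgs2 and Ccl2 had 0 counts. No agent was compared, so silence of these genes cannot be assigned to the receptor.

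The chaperones and immunophilins that hold the unbound receptor were abundant, and 1 of 13, Hsp90ab1, was called varying. All 13 were detected, with summed levels of 4919, 6928 and 6821 TPM in replicates 2, 3 and 4. Of the 13, 9 were lowest in replicate 2, beside 33.6% of all genes, and 1 was highest there, beside 33.9%. No test of the list was made. The median deviation was -0.27 in replicate 2, 0.15 in replicate 3 and 0.12 in replicate 4, against 0.00 in each library over all genes tested. Hsp90ab1, the constitutive HSP90 gene, stood at 2221, 3457 and 3526 TPM and was the gene called (adjusted p = 0.00180). That call was lost without replicate 2 (adjusted p = 1.00) and without replicate 4 (adjusted p = 0.0763), and held without replicate 3 (adjusted p = 0.0466). Its inducible counterpart Hsp90aa1, at 171, 253 and 229 TPM, had an adjusted p of 0.129, and the HSP70 to HSP90 adaptor gene Stip1, at 321, 477 and 447 TPM, had 0.0686. Hspa8, the constitutive HSP70 gene, was at 1046, 1345 and 1310 TPM and was not called. An unadjusted p under 0.05 was found for 8 of the 13, against 554 of the 13498 genes tested.

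Fkbp4 encodes FKBP52, the immunophilin that competes with the Fkbp5 product for HSP90 and favours hormone binding. It had 259, 340 and 329 TPM in replicates 2, 3 and 4, with ratios of 0.749 (0.731 to 0.769) for replicate 2 over replicate 3 and 0.759 (0.736 to 0.783) for replicate 2 over replicate 4. It was not called varying (adjusted p = 0.796). Per library, Fkbp5 lay below Fkbp4 by a log2(TPM + 0.1) difference of -1.61 in replicate 2, -3.00 in replicate 3 and -3.00 in replicate 4, a mean of -2.53 ± 0.80, and the pooled ratio of Fkbp5 to Fkbp4 was 0.184 (0.181 to 0.188). This contrast contains the values for which Fkbp5 was picked, so it is a description.

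The inducible heat shock genes, which share a regulator with many of these chaperones, were also mostly low in replicate 2. Of the 7, 5 were lowest there, beside 33.6% of all genes, and 0 highest, beside 33.9%. The median deviation was -0.25 in replicate 2. In replicate 4, 5 were highest, as were 4792 of the 13498 genes tested. The most abundant were the mitochondrial chaperone genes Hspd1, at 157, 180 and 179 TPM, and Hspe1, at 132, 159 and 177 TPM, neither of them called. The 4 genes called varying, beside 0.533% of all genes, had different orders. Hspa1b at 86.0, 23.9 and 237 TPM and its near-identical copy Hspa1a at 18.3, 3.26 and 61.9 TPM were lowest in replicate 3 and highest in replicate 4. As such close copies may share reads, their separate values are uncertain. Hsph1 was lowest in replicate 2, at 102, 163 and 151 TPM, and its call was lost without that library (adjusted p = 1.00). Hspb1, at 0.147, 0.524 and 2.43 TPM, rested on 31 counts, and its call was lost without replicate 2 (adjusted p = 0.751) or replicate 3 (adjusted p = 0.0536), without a count minimum (0.573) and under the older trend estimate (0.353).

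**Figure D5:**
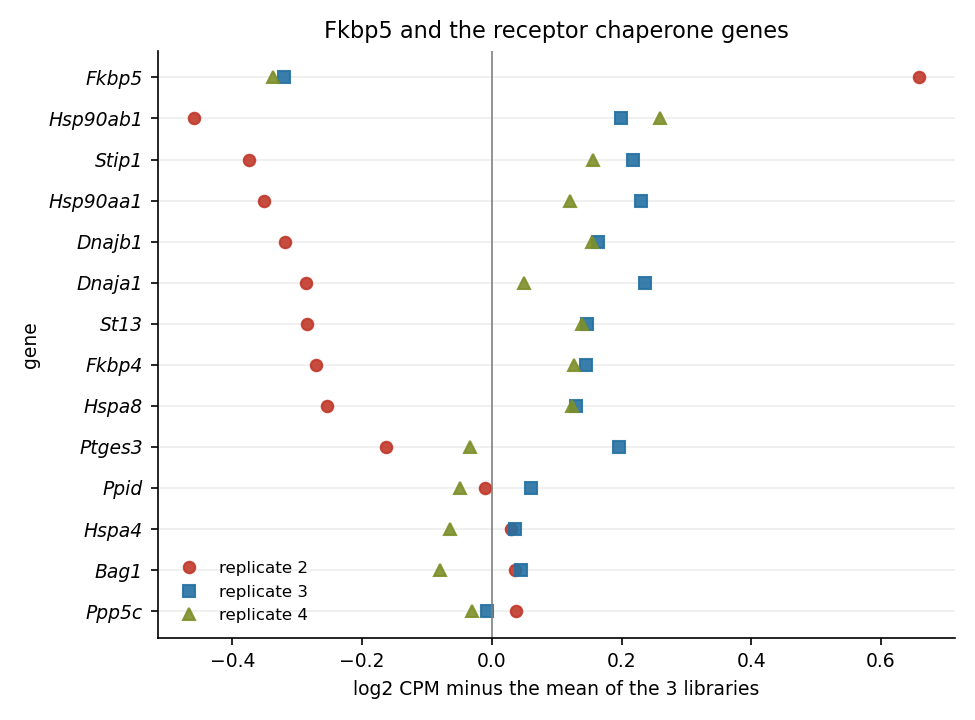
Deviation of each library from the mean of the 3, in log2 CPM, for Fkbp5 and the 13 chaperone and immunophilin genes of the receptor complex. Replicate 2 lies lowest for 9 of the 13, from -0.46 for Hsp90ab1, while it is highest for Fkbp5.

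Coactivators and corepressors of the receptor had a median log2 range among libraries of 0.09, against 0.19 over all genes tested. Of 15 genes, 14 were detected, with the highest levels for the corepressor gene Ncor1 at 183 ± 6.66 TPM, the coactivator gene Ncoa3 at 180 ± 6.99 TPM and the chromatin remodelling gene Smarca4 at 145 ± 1.29 TPM (SD, n = 3 each). By edgeR's goodness of fit 0 of the 14 tested were called varying and 0 had an unadjusted p under 0.05. The median deviation of replicate 2 was -0.02. Ppargc1a, a coactivator of liver and muscle, was at 0.0635 ± 0.0634 TPM.

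The target genes were also set beside their nearest relatives, which are not known for the same strength of hormone response. Tsc22d3 exceeded Tsc22d4, at 191 ± 7.40 TPM, by 0.86 ± 0.15 on the log2(TPM + 0.1) scale, with a pooled length-corrected ratio of 1.84 (1.82 to 1.87). Sgk1 exceeded Sgk3, at 9.06 ± 0.839 TPM, by 2.74 ± 0.23, with a ratio of 6.53 (6.32 to 6.76). Ddit4l, the paralog of Ddit4, had 1 count over the 3 libraries, and the log2 difference of 12.89 ± 0.36 depends on the pseudocount. Of the other paralogs Tsc22d2 was at 18.5 ± 0.334 TPM, and Sgk2 had 4 counts in all. In each of these 3 contrasts the member was higher in 3 of 3 libraries.

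The genes whose libraries differed most like those of Fkbp5 were sought among 10193 genes whose counts averaged 100 or more, by the Euclidean distance between deviations in log2 CPM over the 3 libraries. The nearest was Vmn2r96, at 9.17, 4.56 and 4.34 TPM in replicates 2, 3 and 4 and a distance of 0.0196. It was followed by Cfap74 at 5.73, 3.19 and 2.84 TPM, Bbc3 at 103, 58.5 and 55.3 TPM, 1110032F04Rik at 17.6, 9.97 and 8.12 TPM and Gm43328 at 12.3, 7.50 and 6.65 TPM, the last at a distance of 0.209. Bbc3 encodes PUMA, a pro-apoptotic protein that glucocorticoids are known to induce in thymocytes, and it was not on the list of further targets. Of the listed targets the nearest were Il7r at rank 36, Pik3ip1 at rank 69 and Tsc22d3 at rank 320. With 3 libraries many genes lie close by this measure, and the ranks say nothing of shared control.

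Markers of other cells that could carry targets of the receptor are given beside these differences. The 7 B cell genes summed to 94.0, 114 and 69.6 TPM in replicates 2, 3 and 4, with Igkc at 50.1, 64.9 and 35.4 TPM, Cd79a at 15.1, 16.9 and 12.3 TPM and Cd79b at 15.2, 17.2 and 11.5 TPM, so that this list was highest in replicate 3. The 5 erythroid genes summed to 5.89, 2.05 and 1.85 TPM, highest in replicate 2, with Hbb-bs at 3.56, 1.49 and 0.980 TPM, Hba-a1 at 1.22, 0.370 and 0.154 TPM and Hbb-bt at 0.756, 0.171 and 0.714 TPM. The globin genes are near copies of each other and their separate values are uncertain. The CD8 lineage genes Cd8b1 and Cd8a summed to 36.8, 34.5 and 31.2 TPM, nearly all of it from Cd8b1 at 36.5, 33.9 and 30.5 TPM. Cd8a ran the other way, at 0.334, 0.578 and 0.690 TPM. The mitochondrial share of counts lay between 1.09% and 1.19%. Their part in the Fkbp5 difference was not tested.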

How the data were processed

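RNA of 3 libraries in 1 group was analysed. The authors deposited raw counts, 1 per read pair and gene, made with featureCounts 1.4.6-p4 over GENCODE vM13 exons on mm10, with both ends aligned and reverse strand counting, per the file headers. The headers hint at the aligner only by the word star, and its version is not given in the sources used here. Beside the counts stand exon lengths, from which TPM were computed, so isoforms are not modelled. Totals were 28340521 to 59698913 counts. Symbols matched 50376 of 50600 identifiers. With strand counting, antisense genes are separate. No member shared exon bases with a gene on its own strand.

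The members and lists were chosen with earlier results of these data known. Variation among libraries was assessed in R 4.3.3 by edgeR 4.0.16, which compared each gene's 3 counts with a negative binomial fit holding only an intercept (goodness of fit). Scaling was TMM, dispersion followed the trend with abundance, and genes whose counts averaged under 10 were left out. A single group leaves a quasi-likelihood test nothing to compare. The script was tested on simulated data. Deviations are TMM log2 CPM with a prior count of 2. Contrasts used a pseudocount of 0.1. The other tools were Python 3.11.15, pandas 2.3.3, scipy 1.17.1, numpy 2.4.6 and, for figures, matplotlib 3.10.9.

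Named genes are the 8 members, the 3 of highest mean TPM in each list, those called varying, members below 1 TPM as needed, the 5 most like Fkbp5 and contrast partners. Cd3e, Pik3ip1, Klf9, Per1, Hsp90aa1, Star, Abcb1a and Abcb1b were picked outside this rule with their values known. The alternatives tried were another scaling, count minimum, dispersion, pseudocount, prior count or detection threshold, TPM without short genes or over protein-coding genes, and each replicate left out. An older trend estimate, and the shared order without replicate 3 or 4, were added after seeing the data.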

Additional observations from a re-analysis of the deposited data

How the results depend on the processing

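Over all genes, 312 were called varying under a common dispersion and 35 to 46 with a replicate left out, against 72 with all libraries and a trended dispersion. Of the members tested besides Fkbp5, 0 were called under every setting run. Mean levels moved by more than 1 SD only where TPM was rescaled. Without genes under 200 bases Nr3c1 was at 83.5 TPM and Hsd11b1 at 71.9 TPM, and over protein-coding genes alone Nr3c1 was at 87.1, Hsd11b1 at 75.0, Sgk1 at 65.7 and Ddit4 at 924 TPM. No result changed direction under any alternative run. Tsc22d3 and Ddit4 stayed highest in replicate 2 under size factor scaling, a prior count of 0.5 and total count scaling. They were highest there without replicate 3 or 4 too, but this follows from replicate 2 being above both other libraries. Without replicate 3, 50.5% of all genes were highest in replicate 2, and without replicate 4, 49.8%. Under total count scaling 40.2% of all genes were highest there. Without replicate 2 that count has no value. For single genes named beside the members, 24 adjusted p-values were no longer under 0.05 in an alternative, most of them without 1 replicate. Size factors of DESeq2 served only as a scaling, and no DESeq2 test was run, as there is no contrast. No paired analysis was possible because there is 1 group. Low counts limit what can be said of Nr3c2 and Zbtb16.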

Other observations

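Beyond Fkbp5, 9 of 14 genes of the FK506 binding protein family were detected (1 TPM or more in each library). After Fkbp4 the highest were Fkbp8, an anchor on mitochondria, at 272 ± 6.58 TPM and the nuclear member Fkbp3 at 219 ± 10.7 TPM (SD, n = 3), while Fkbp1b, Fkbp6 and Fkbp9 had 0 counts. By edgeR's goodness of fit 0 of the 9 tested were called varying and 1, Fkbp4, had an unadjusted p under 0.05. The median deviation of replicate 2 was 0.00 on the log2 scale.

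Clock genes, several of which glucocorticoids entrain, had a median log2 range among libraries of 0.14, against 0.19 over all genes tested. Of 10, 9 were detected and 0 were called varying (edgeR goodness of fit, 0 with an unadjusted p under 0.05). The repressor gene Cry1 was at 52.2 ± 3.21 TPM, the output gene Dbp at 34.1 ± 1.43 TPM and Nr1d2 at 22.0 ± 1.49 TPM. Of the other regulators of mTORC1 and targets of Atf4, 7 of 10 were detected, with the stress factor gene Atf4 at 282, 304 and 360 TPM in replicates 2, 3 and 4, Sesn3 at 101 ± 6.91 TPM and Tsc2 at 67.2 ± 1.87 TPM. Of the 8 tested 0 were called, and 1, Atf4, had an unadjusted p under 0.05.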
